A study of Rattus norvegicus with 210 samples.

Results

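The mediobasal hypothalamus (MBH) of vehicle rats was compared between the libraries labelled postnatal day (PND) 90 and those labelled PND42. The members were taken by label, as the 5 vehicle MBH libraries of either age, which gave 10 of the 210 libraries of the series. The rats were female Sprague-Dawley rats whose dams had received corn oil by oral gavage, once a day from gestational day 7 until the pups reached PND22. The wider study sequenced polyadenylated RNA of the MBH and the preoptic area (POA) at these 2 ages and at PND22, in rats whose dams received ketoconazole (KTZ), a steroid synthesis inhibitor, diethylstilbestrol (DES), a synthetic estrogen, or vehicle. The KTZ groups, named by dose, received 3, 6 or 12 mg/kg per day (KTZ3, KTZ6, KTZ12) and the DES groups 3, 6 or 12 µg/kg per day (DES3, DES6, DES12). All 10 rats therefore shared the gavage of their dams with corn oil, and no untreated rats stood beside them. The 10 libraries carried 10 different rat numbers, and the labels did not say which rats were littermates. Rat number 101, of PND90 replicate 1, was also carried by the KTZ3 libraries of replicate 1 labelled PND22, and whether the number had been used again or a label was wrong was not tested. No number was shared between the groups PND90 and PND42, so age could not be followed within an animal. The rats labelled PND90 also gave the 5 vehicle POA libraries of that age.

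The MBH holds the arcuate nucleus, whose neurons drive GnRH secretion, feeding and pituitary function, together with the tanycytes of the third ventricle and the myelinated tracts that pass through it. In the rodent brain, oligodendrocyte precursors divide, pass through a short premyelinating stage and then become myelin-forming cells, and the premyelinating cells become fewer from weaning to adulthood. Gpr17, a receptor of the premyelinating stage, and Mki67, the cell division antigen Ki-67, would therefore be lower at PND90 than at PND42 if the labels give the ages, and Mbp, myelin basic protein, would be equal or higher.

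The counts on genes lay between 16919455 and 22416287 reads per library for the label PND90 (median 18271370), and between 20543108 and 24235728 for PND42 (median 22437499). Levels are given as CPM, the reads of a gene per 1000000 reads counted on genes in that library, and are compared here between libraries for the same gene. A count of 0 allows up to 3 reads, which was 0.177 CPM in the shallowest of the 10 libraries, and such limits cover counting error only. The dissection was checked by genes of the hypothalamus. Agrp and Pomc, peptide genes of arcuate neurons, lay between 4.24 and 14.2 CPM and between 15.8 and 46.6 CPM in the 10 libraries, against at most 1.58 and 3.00 CPM in the vehicle POA libraries labelled PND42 and PND90. Rax, a transcription factor of tanycytes, was low, between 0.248 and 0.993 CPM, and at most 0.0526 CPM in those POA libraries. Pmch, the melanin-concentrating hormone precursor of the lateral hypothalamus, lay between 888 and 1166 CPM in the libraries labelled PND90, and between 1057 and 1757 CPM in those labelled PND42. Foxb1, a transcription factor of the mammillary body, lay between 10.3 and 13.3 CPM and between 5.34 and 7.80 CPM, respectively.

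Some libraries stood apart by genes of neighbouring tissue. Slc17a7, the vesicular glutamate transporter of thalamus and cortex, was at 38.3, 30.8 and 22.3 CPM in replicates 1, 2 and 5 labelled PND42, against 1.69 and 2.14 CPM in replicates 3 and 4. In the libraries labelled PND90 it was between 1.32 and 6.69 CPM. Prl, the pituitary hormone prolactin, was at 35.1 CPM in PND42 replicate 4, at 0.413 CPM in replicate 5, and at 0 in the other 8 libraries. Replicate 5 labelled PND42 also had the highest share of mitochondrial reads, 11.0%, against 6.82% to 8.37% in the other 9 libraries. The counts of genes called in each list are therefore also given without PND42 replicates 1, 2 and 5, a choice made after the values were seen. That fit keeps only replicates 3 and 4 for PND42, so a call can also be lost for want of libraries.

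Gpr17 and Mki67 ran against the order that the labelled ages predict, whereas Mbp did not. The labels were kept as deposited, and whether libraries had been exchanged between ages or groups was not tested. Rises and falls are therefore given between labels, from PND42 to PND90, and may not be changes with age. Gpr17 was 3.08-fold higher in the libraries labelled PND90 than in those labelled PND42, Mki67 was 1.72-fold higher, a call lost in 2 alternatives given below, and Mbp did not pass the test. In the libraries labelled PND90, Gpr17 was at 136, 115, 135, 106 and 122 CPM. In those labelled PND42, it was at 33.7, 38.2, 45.4, 44.7 and 32.5 CPM. Each of the 5 libraries labelled PND90 lay above each of those labelled PND42, and the gap between the groups exceeded the range within either. The log2 fold change was 1.62 (SE 0.10, adjusted p = 1.58e-06), and the exact permutation test over all 252 splits gave p = 0.00794, two-sided, the smallest that 5 against 5 allows.

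Mki67 was at 4.64, 4.37, 4.19, 5.32 and 3.67 CPM in the libraries labelled PND90. It was at 1.65, 2.19, 2.45, 3.28 and 2.89 CPM in those labelled PND42. The groups did not overlap, but PND90 replicate 5 and PND42 replicate 4 lay close together. The log2 fold change was 0.79 (SE 0.18, adjusted p = 0.0169; exact permutation p = 0.00794). The call was lost without PND42 replicates 1, 2 and 5 (0.65, adjusted p = 0.118) and when 14 groups shared the spread (0.79, adjusted p = 0.0668). The Mki67 promoter is shown because the gene is read here as a marker of cell division. CCAAT (or ATTGG) and TTTGAA (or TTCAAA), searched on both strands, are the letters of the CCAAT box and of the cell cycle genes homology region, elements known from promoters of cell cycle genes. The sequence is from RefSeq (assembly GRCr8, chr1:199952544-199952843, minus strand), runs from 250 bases before the start site to 50 after it, and has these letters in capitals. The last 2 matches overlap by 1 base.

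Mki67: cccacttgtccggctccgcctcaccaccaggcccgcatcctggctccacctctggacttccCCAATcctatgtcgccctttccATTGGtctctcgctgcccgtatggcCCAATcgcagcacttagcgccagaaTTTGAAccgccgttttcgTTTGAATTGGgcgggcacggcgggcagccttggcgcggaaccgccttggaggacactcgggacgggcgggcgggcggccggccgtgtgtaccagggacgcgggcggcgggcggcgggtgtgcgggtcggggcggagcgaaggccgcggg

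The window held CCAAT 4 times and TTTGAA 2 times. Of all 33469 RefSeq promoter windows of this length, 37.5% held CCAAT, 18.3% held TTTGAA and 7.41% held both. Of the 25 genes of the cell division list used below, 19 were matched by symbol, and 10 of these held both. A match describes the letters and is not evidence of binding.

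Mbp was at 10574, 7522, 6462, 6995 and 8681 CPM in the libraries labelled PND90, and at 9218, 7641, 6240, 6314 and 11896 CPM in those labelled PND42. The groups overlapped over nearly their whole range. The log2 fold change was -0.09 (SE 0.20, adjusted p = 0.781; exact permutation p = 0.944), and it was 0.38 without PND42 replicates 1, 2 and 5 (adjusted p = 0.261). Benjamini-Hochberg adjustment of the exact tests over 9 comparisons, 3 genes in 3 comparisons, gave 0.0143 for Gpr17 and Mki67 and 0.944 for Mbp.

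**Figure D1:**
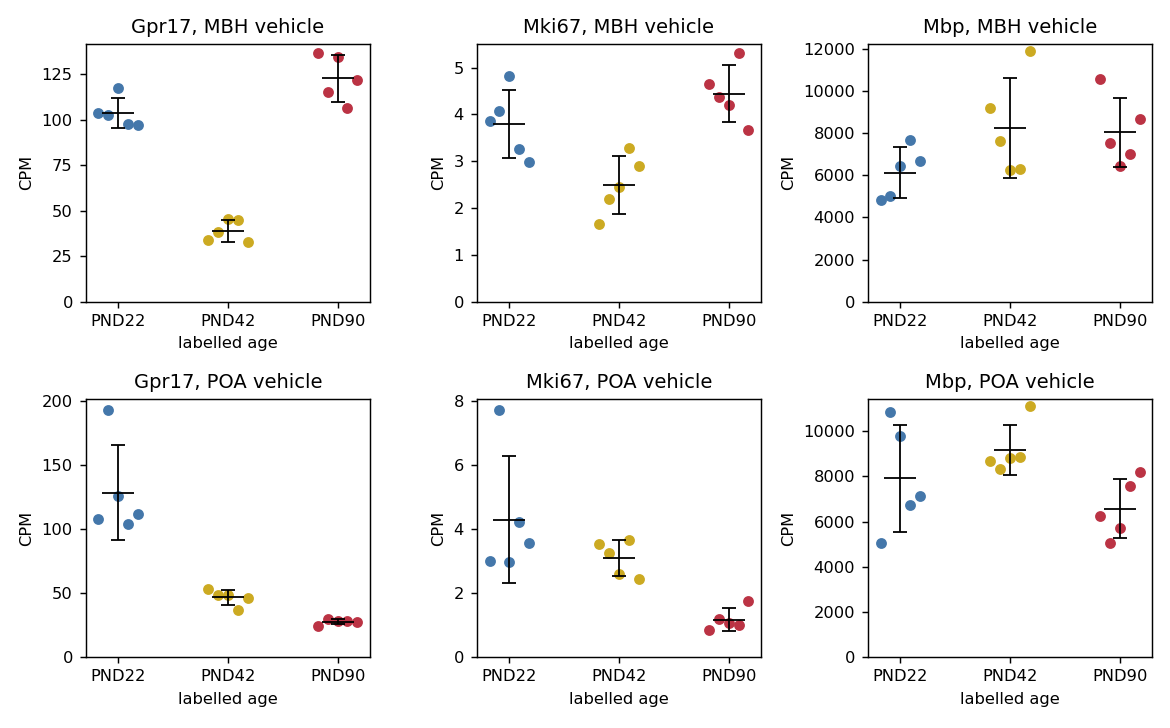
Levels in CPM (vertical axes) of Gpr17, Mki67 and Mbp by labelled age (horizontal axes) in the MBH (top) and POA (bottom) of vehicle rats, with a point for each library and the mean ± SD of 5 libraries as a bar with whiskers. In the MBH, Gpr17 and Mki67 are lowest in the libraries labelled PND42, whereas in the POA they are lowest in those labelled PND90.

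The vehicle MBH libraries labelled PND22 were set beside these groups. Gpr17 was 104 ± 8.29 CPM (SD, n = 5) at PND22, 38.9 ± 6.02 CPM at PND42 and 123 ± 12.9 CPM at PND90 by label. Mki67 was 3.80 ± 0.729, 2.49 ± 0.628 and 4.44 ± 0.608 CPM, and Mbp was 6133 ± 1205, 8262 ± 2366 and 8047 ± 1634 CPM, in the same order. From PND22 to PND42, Gpr17 decreased by 1.36 on the log2 scale (SE 0.09, adjusted p = 1.20e-05). Mki67 (-0.55, SE 0.20, adjusted p = 0.0783) and Mbp (0.50, SE 0.21, adjusted p = 0.109) did not pass the test between these ages. Both passed it without PND42 replicate 4 (adjusted p = 0.0472 and 0.0476). Between the labels PND90 and PND22, the log2 fold change of Gpr17 was 0.27 (SE 0.08, adjusted p = 0.151). The exact permutation test of Gpr17 instead gave p = 0.0317, or 0.0476 when adjusted over the 9 comparisons. Mki67 differed by 0.25 (SE 0.15, adjusted p = 0.478) and Mbp by 0.41 (SE 0.15, adjusted p = 0.223) between PND90 and PND22. Over all genes, 2295 of 14861 were called between PND42 and PND22 (15.4%), and 10 of 14745 between the labels PND90 and PND22 (0.0678%). Without 1 library at a time the former count lay between 1052 and 3548. The latter lay between 0 and 197, the highest without PND90 replicate 4, and DESeq2 called 316. The 3 comparisons share libraries, so their values are not independent of each other. The 10 genes included Matn4, a matrix protein of oligodendrocyte precursors (0.70, adjusted p = 0.0455), Scn7a, a sodium channel (-0.82, adjusted p = 0.0455), Grm4, a glutamate receptor (0.64, adjusted p = 0.0455), and Cux2, a neuronal transcription factor (0.50, adjusted p = 0.0455).

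In the vehicle POA, the labelled ages and the genes ran in the predicted order for Gpr17 and Mki67. Gpr17 was at 24.2, 29.4, 27.8, 28.0 and 27.3 CPM in the POA libraries labelled PND90 and at 53.0, 48.2, 48.0, 36.9 and 45.9 CPM in those labelled PND42. All 5 PND90 libraries lay below all 5 of PND42 (log2 fold change -0.75, SE 0.09, adjusted p = 7.43e-04; exact permutation p = 0.00794). Mki67 also fell, from 3.09 ± 0.557 to 1.16 ± 0.347 CPM (-1.39, SE 0.23, adjusted p = 0.0048; exact permutation p = 0.00794). Mbp was 9164 ± 1118 CPM at PND42 and 6569 ± 1302 CPM at PND90 (-0.47, SE 0.14, adjusted p = 0.0642; exact permutation p = 0.00794), so that it was lower where an equal or higher level was predicted. The exact p of each of the 3 genes in the POA was 0.0143 when adjusted over the 9 comparisons. Whether the change differed between MBH and POA was tested with an interaction term over 20 libraries. The log2 fold change from PND42 to PND90 was positive in the MBH and negative in the POA for both genes, and the MBH value minus the POA value was 2.39 for Gpr17 (SE 0.14, adjusted p = 5.36e-10) and 2.19 for Mki67 (SE 0.29, adjusted p = 4.66e-05). For Mbp the difference was 0.39 (SE 0.26, adjusted p = 0.39). The interaction was called for 1353 of 15125 genes (8.95%). These adjusted p values treat the 20 libraries as independent. Since most rats gave both tissues, the rat was also used as a block, which gave 745 of 15186 genes. With the block, the difference was 2.36 for Gpr17 (adjusted p = 1.37e-05) and 2.25 for Mki67 (adjusted p = 0.0045). For Mbp it was 0.43 (adjusted p = 0.264). The block fit left out MBH PND42 replicate 2 and POA PND42 replicate 3, whose rats gave no library of the other tissue. Neither the libraries nor the genes tested were the same, so the 2 fits differ in more than the block.

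Over all genes, 1817 of 14807 tested were called between the labels PND90 and PND42 in the MBH (12.3%), 958 higher (6.47%) and 859 lower (5.8%) in the libraries labelled PND90. The median log2 fold change of all tested genes was 0.00. Of the 14807 genes, 1642 (11.1%) had CPM values that did not overlap between the groups. Without PND42 replicates 1, 2 and 5, 297 genes were called higher and 200 lower, 3.28% of 15169 tested. Leaving out 1 library gave between 961 genes (without PND90 replicate 3) and 2823 genes (without PND42 replicate 4). In bulk tissue, fewer cells of a type and less RNA per cell cannot be told apart.

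**Figure D2:**
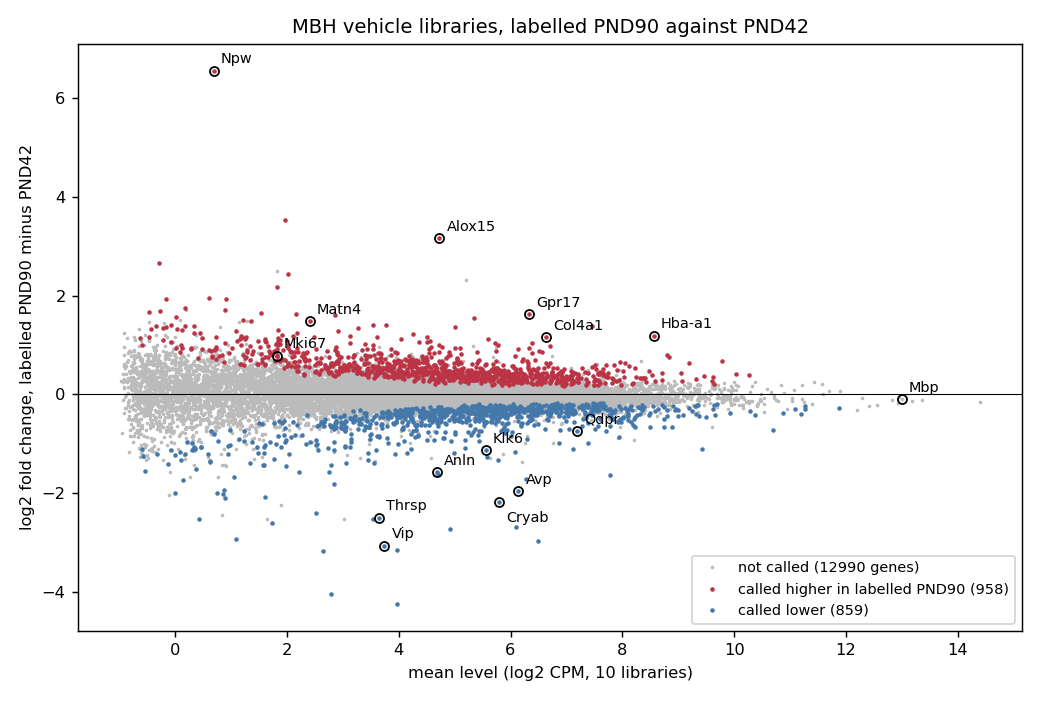
Log2 fold change between the labels PND90 and PND42 (vertical axis) against the mean log2 CPM over the 10 libraries (horizontal axis) for 14807 genes, with red points for the 958 genes called higher in the libraries labelled PND90, blue points for the 859 called lower and grey points for the rest. Named genes are circled, and Gpr17 stands out among genes of its level whereas Mbp lies near 0.

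The genes with the largest rises, among those with a mean of at least 1 log2 CPM and groups that did not overlap, were Alox15, Slc4a1, Col26a1, Gpr17, Col20a1, Eln, Aim2, Ccdc155, Matn4 and Cd93. Alox15, a lipoxygenase of arachidonic and linoleic acid, was at 50.01, 43.6, 27.7, 85.5 and 36.3 CPM in the libraries labelled PND90 and at 2.52, 4.24, 8.11, 6.597 and 4.87 CPM in those labelled PND42. The groups were widely separated, and the fold was 8.93 (log2 fold change 3.16, SE 0.31, adjusted p = 9.69e-05). Its PND22 mean was 56.6 ± 20.4 CPM. Slc4a1, the anion exchanger of red cells, rose 4.52-fold, and both genes were highest in PND90 replicate 4 and lowest among the PND90 libraries in replicate 3, as was the summed level of the blood genes (1772 and 711 CPM). The part of blood in the Alox15 value was not tested. The matrix genes Col26a1, Col20a1 and Eln (elastin) rose 3.13-fold, 3.05-fold and 2.90-fold. Eln was at 115 CPM in PND90 replicate 2 and between 40.5 and 53.3 CPM in the other 4 libraries of that label. Aim2, a sensor of DNA in the cytosol, rose 2.86-fold, Ccdc155 2.79-fold and Cd93, a receptor of endothelial cells, 2.63-fold. All 10 rises had PND22 means between 2.65 and 104 CPM that lay above the PND42 mean of the same gene.

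The genes with the largest falls were Vip, Cyp4b1, Thrsp, Cryab, Avp, Sgk1, Gpd1, Anln, Aadat and Isg15. Vip, the vasoactive intestinal peptide of suprachiasmatic neurons, was at 2.28, 3.20, 1.43, 4.73 and 2.85 CPM in the libraries labelled PND90 and at 41.2, 28.9, 16.0, 17.9 and 12.5 CPM in those labelled PND42. All 5 libraries labelled PND42 were higher, and they varied among themselves (log2 fold change -3.06, SE 0.35, adjusted p = 2.37e-04). Avp, the vasopressin precursor, lay between 11.4 and 51.0 CPM for PND90 and between 62.8 and 145 CPM for PND42 (-1.96, SE 0.40, adjusted p = 0.00962). Both peptides are also made in the suprachiasmatic nucleus near the rostral edge of the dissection, and the part of the dissection in these values was not tested. Cryab, a small heat shock protein of glia, was at 21.4, 20.1, 19.1, 16.3 and 23.4 CPM for PND90 and at 126, 73.8, 68.9, 62.4 and 109 CPM for PND42 (-2.18, SE 0.21, adjusted p = 8.07e-05). Thrsp, a regulator of lipid synthesis that responds to thyroid hormone, and Gpd1, the glycerol-3-phosphate dehydrogenase, fell by 2.49 and 1.62 on the log2 scale. Sgk1, a kinase induced by corticosteroids, was lowest among the PND42 libraries in replicate 5 (50.1 CPM) and reached 211 CPM in replicate 1, while the highest value for PND90 was 43.6 CPM. Cyp4b1, Aadat and Isg15, an interferon-induced ubiquitin-like protein, fell by 2.61, 1.44 and 1.42 on the log2 scale.

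Gene lists were then counted, each beside the share of all genes called, which was 6.47% higher and 5.8% lower, and 3.28% in either direction without PND42 replicates 1, 2 and 5. Of 11 tested genes of oligodendrocyte precursors, 7 rose and none fell, beside 6.47% of all genes higher, with a median log2 fold change of 0.33, beside 0.00 over all genes. Matn4 was at 8.48, 7.98, 7.17, 7.33 and 8.15 CPM for PND90 and at 2.47, 3.55, 2.67, 2.77 and 2.19 CPM for PND42 (1.48, SE 0.14, adjusted p = 8.07e-05). Its 2 groups were far apart. Pdgfra, the growth factor receptor that defines the precursors, was between 136 and 154 CPM and between 99.1 and 126 CPM, respectively (0.38, SE 0.06, adjusted p = 0.00202). C1ql1 and Cspg4 (the proteoglycan NG2) rose by 0.57 and 0.49 log2 units, and Olig2, Sox6 and Ptprz1 by 0.33, 0.63 and 0.25. Without PND42 replicates 1, 2 and 5, 3 of these genes were called, all higher, beside 3.28% of all genes.

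Of 11 tested genes of newly forming oligodendrocytes, 5 rose, Gpr17 among them, and none fell, beside 6.47% of all genes higher, with a median of 0.41. Enpp6, a phosphodiesterase of the premyelinating stage, was at 38.9, 30.3, 29.5, 30.3 and 30.9 CPM for PND90 and at 15.4, 14.3, 13.3, 13.7 and 22.8 CPM for PND42. The groups did not overlap (0.96, SE 0.16, adjusted p = 0.00366), although PND42 replicate 5 lay well above the other 4 of its label. Rras2, a small GTPase, Itpr2, a calcium channel of the endoplasmic reticulum, and Fyn, a kinase of myelination, rose by 0.64, 0.54 and 0.41 log2 units. Tcf7l2, a transcription factor that thalamic neurons also express, was at 35.5 CPM for PND90 and 79.7 CPM for PND42 on average and did not pass the test (-1.21, SE 0.44, adjusted p = 0.0828). Without PND42 replicates 1, 2 and 5, 7 genes of this list were called, all higher, beside 3.28% of all genes.

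Of 19 tested genes of mature myelin, 7 fell (5.8% of all genes) and 3 rose (6.47% of all genes), with a median of -0.26, which was -0.0053 without PND42 replicates 1, 2 and 5, where 5 fell and 3 rose, beside 3.28% of all genes called. Anln, anillin of the myelin septin scaffold, was at 15.1, 11.8, 12.4, 12.6 and 13.1 CPM for PND90 and at 41.2, 36.0, 38.0, 36.0 and 37.1 CPM for PND42. No library lay between 15.1 and 36.0 CPM (-1.57, SE 0.09, adjusted p = 1.58e-06). Klk6, a protease of mature oligodendrocytes, was between 28.1 and 31.4 CPM and between 55.3 and 73.1 CPM (-1.13, SE 0.10, adjusted p = 8.07e-05). Qdpr, the dihydropteridine reductase, and Car2, carbonic anhydrase 2, fell by 0.74 log2 units each, and Ermn, Apod and Hapln2 by 0.70, 0.62 and 0.73. Mag, the myelin-associated glycoprotein, rose by 0.63, Cnp by 0.38 and Ugt8, the enzyme of galactolipid synthesis, by 0.42.

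Of 24 tested genes of DNA replication and mitosis, Mki67 alone was called by edgeR, 1 of 24 beside 12.3% of all genes, with a median of 0.30 over the list. Bub1b, a kinase of the spindle checkpoint, and Ube2c, a ubiquitin-conjugating enzyme of mitosis, differed by 0.95 (adjusted p = 0.0572) and 0.89 (adjusted p = 0.0877), and DESeq2 called Mki67 and Bub1b. EdgeR called none without PND42 replicates 1, 2 and 5, where 6 of these genes and 2653 of all 15169 tested had an unadjusted p under 0.05. Aurkb, a mitotic kinase, varied more within a group than between groups, from 4.86 to 28.4 CPM for PND90 and from 4.27 to 25.7 CPM for PND42.

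Of 17 tested extracellular matrix genes, 7 rose and none fell (median 0.39), beside 6.47% of all genes higher. Without PND42 replicates 1, 2 and 5, 2 were called, both higher, beside 3.28% of all genes. Col4a1, a collagen chain of the vascular basement membrane, was at 133, 162, 127, 135 and 137 CPM for PND90 and at 49.5, 63.4, 66.5, 83.3 and 42.2 CPM for PND42. Its partner chain Col4a2 was at 112, 128, 99.8, 115 and 113 CPM and at 37.0, 62.8, 64.6, 81.3 and 26.7 CPM. Both genes separated the groups, and both were highest among the PND42 libraries in replicate 4 and lowest in replicate 5. Col4a1 rose 2.23-fold (log2 fold change 1.16, SE 0.13, adjusted p = 1.86e-04) and Col4a2 2.05-fold (1.04, SE 0.21, adjusted p = 0.00854). The pair is transcribed in opposite directions from neighbouring start sites, so their promoter windows overlap. The RefSeq windows (assembly GRCr8) of Col4a1 (chr16:84885347-84885646, plus strand) and Col4a2 (chr16:84885471-84885770, minus strand) share 176 bases, and their start sites lie 77 bases apart. The Col4a1 window is printed with CCAAT or ATTGG in capitals.

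Col4a1: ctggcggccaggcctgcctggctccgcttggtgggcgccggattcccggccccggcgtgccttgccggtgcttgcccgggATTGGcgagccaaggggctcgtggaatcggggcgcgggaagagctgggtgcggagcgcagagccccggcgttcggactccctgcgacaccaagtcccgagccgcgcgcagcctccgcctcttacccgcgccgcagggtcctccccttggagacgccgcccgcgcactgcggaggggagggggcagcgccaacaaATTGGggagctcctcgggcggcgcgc

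The window held these letters 2 times and TTTGAA not at all, and the second match lies within the shared stretch. Among the other matrix genes, Col6a1 rose by 1.16, Mmp2, a gelatinase, by 0.53, and Col1a1, Col5a2 and Col6a2 by 1.12, 0.37 and 0.80 log2 units. Of 11 tested genes of endothelial cells and pericytes, 4 rose and 1 fell (median 0.33), beside 12.3% of all genes called, with the same counts without PND42 replicates 1, 2 and 5, beside 3.28%. Pdgfrb, the receptor that marks pericytes, was at 39.4, 44.9, 40.5, 40.2 and 43.8 CPM for PND90 and at 24.0, 24.7, 25.1, 30.6 and 17.9 CPM for PND42. The groups did not overlap (0.74, SE 0.10, adjusted p = 6.38e-04). Abcc9 and Rgs5, also of pericytes, rose by 0.78 and 0.64, and the VEGF receptor Kdr rose by 0.70 whereas the VEGF receptor Flt1 fell by 0.41.

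All 6 blood genes in the table of 8 listed were tested, 4 rose beside 6.47% of all genes (3 without PND42 replicates 1, 2 and 5, beside 3.28% called), and their summed level was 1166, 1391, 711, 1772 and 1057 CPM for PND90 against 468, 554, 569, 677 and 621 CPM for PND42. The most abundant was Hba-a1, an alpha globin, for PND90 and Hbb, a beta globin, for PND42. Hba-a1, Hba-a2, Alas2, the erythroid enzyme of heme synthesis, and Slc4a1, the anion exchanger of red cells, rose by 1.19, 1.39, 1.34 and 2.18 log2 units. Reads of near-identical globin copies may be split between them. The part of blood in the vessel values was not tested.

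Of 16 tested genes of immature neurons, 6 rose and 1 fell (median 0.17), beside 12.3% of all genes called. Tubb2b, a tubulin of growing axons, was at 268, 288, 292, 278 and 280 CPM for PND90 and at 158, 193, 189, 178 and 190 CPM for PND42 (0.59, SE 0.07, adjusted p = 3.18e-04). The groups were clearly separate. Dcx, doublecortin of migrating neurons, and Marcksl1, a regulator of actin, rose by 0.48 and 1.17, whereas Stmn1, a regulator of microtubules, fell by 0.66. Without PND42 replicates 1, 2 and 5, 3 genes rose and 1 fell, beside 3.28%. Of 18 tested genes of synaptic and perineuronal net maturation, 4 rose and 1 fell (median -0.01), again beside 12.3% of all genes. The 4 with the smallest adjusted p were the matrix genes Ncan, Bcan and Tnr, which rose by 0.42, 0.47 and 0.64, and Scn4b, a sodium channel subunit, which fell by 0.87. The link protein gene Hapln1 rose by 0.52. Ncan, Bcan and Tnr were also called without PND42 replicates 1, 2 and 5, whereas Scn4b and Hapln1 were not. The neurofilament genes, the NMDA receptor genes Grin2a, Grin2b and Grin2c, and Pvalb did not pass the test, with log2 fold changes between -0.27 and 0.07.

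Of 22 tested genes of puberty and GnRH control, 2 rose, 2 fell and 18 were not called by edgeR (median -0.13), so that 4 of 22 were called beside 12.3% of all genes, and DESeq2 called 7. In the fit without PND42 replicates 1, 2 and 5, 3 fell (Avp, Pgr and Greb1) and none rose. The study names the diestrus stage for its GnRH release measurements at PND90 and gives no cycle stage for PND42. The part of cycle stage in these values was not tested. Mkrn3, a puberty brake, was at 4.24, 2.49, 3.48, 2.54 and 3.50 CPM for PND90 and at 1.36, 1.61, 1.07, 1.76 and 1.28 CPM for PND42. Each library labelled PND90 was higher than each of PND42 (1.16, SE 0.21, adjusted p = 0.00455). Igsf10, a gene of GnRH neuron migration, rose by 0.59, and Sema7a, a guidance protein, fell by 0.67, as did Avp above. Kiss1, kisspeptin, was at 1.38 and 1.31 CPM on average (0.02, SE 0.32, adjusted p = 0.976). Its receptor gene Kiss1r, Tac3 (neurokinin B), Pdyn (dynorphin), Esr1 and Pgr differed by -0.16, -0.14, 0.13, -0.12 and -0.27, all short of the threshold. Oxt, the oxytocin precursor, differed by -1.37 (SE 0.48, adjusted p = 0.0753) and Nsmf, a factor of GnRH neuron migration, by -0.89 (SE 0.28, adjusted p = 0.0535), and DESeq2 called Nsmf.

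Of 17 tested genes of arcuate neurons and metabolism, 3 rose and none fell (median 0.20), so that 3 of 17 were called beside 12.3% of all genes, and 1 was called, as higher, without PND42 replicates 1, 2 and 5. Npw, the precursor of the peptide neuropeptide W, had 67, 98, 49, 38 and 51 reads in the libraries labelled PND90 and 0, 0, 1, 1 and 1 in those labelled PND42. The 5 libraries labelled PND22 had 43, 78, 58, 57 and 55 reads. With reads pooled within each label, PND90 and PND42 differed by a ratio of 118 in CPM (95% counting interval 40.1 to 576, exact binomial). This ratio rests on 3 reads in the denominator, and its interval leaves out the variation between rats. The edgeR fit gave a log2 fold change of 6.55 (SE 0.45, adjusted p = 6.20e-06). Nr5a1 and Tbx3, transcription factors of the ventromedial and arcuate nuclei, rose by 0.81 and 0.54 and also stood in the list of hypothalamic genes. Agrp, Pomc, Cartpt, Ghrh and Sst were not called, with log2 fold changes between -0.20 and 0.48. Slc6a3, the dopamine transporter, averaged 61.4 CPM for PND90 and 12.1 CPM for PND42 without passing the edgeR test (2.32, SE 0.73, adjusted p = 0.0545), while DESeq2 called it (adjusted p = 0.0414).

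Of 13 tested genes of polycomb and DNA methylation, 3 rose and 3 fell (median 0.25), beside 12.3% of all genes called, and without PND42 replicates 1, 2 and 5, 1 rose and 2 fell, beside 3.28%. Dnmt3a, the de novo DNA methyltransferase, was at 44.2, 36.5, 41.3, 42.7 and 48.7 CPM for PND90 and at 18.4, 23.7, 23.1, 29.0 and 14.2 CPM for PND42. The groups did not overlap (0.95, SE 0.14, adjusted p = 0.00117). The histone methyltransferase genes moved in opposite directions, with Ezh2 higher by 0.52 and Ezh1 lower (-0.40). Of the other polycomb genes, Cbx7 and Eed fell by 0.48 and 0.36, and Tet1, a DNA demethylase, rose by 0.69. Of 17 tested genes of cholesterol synthesis, 1 rose and 3 fell (median -0.05), beside the same 12.3%. Dhcr7, the last reductase of the pathway, rose by 0.29, and Fdft1, Msmo1 and Sc5d fell by 0.32, 0.50 and 0.28. Without PND42 replicates 1, 2 and 5, edgeR called none of these genes, and 7 had an unadjusted p under 0.05, as had 2653 of all 15169 genes.

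Of 12 astrocyte genes, S100b and Gfap fell by 0.71 and 0.46 log2 units and 10 were not called (median -0.09), beside 12.3% of all genes called; S100b alone was called without PND42 replicates 1, 2 and 5. S100b was at 2706 CPM in PND42 replicate 5, against 1738 to 1873 CPM in the other 4 libraries of that label and 1186 to 1416 CPM for PND90. Of 12 microglial genes, Cx3cr1, the fractalkine receptor, rose by 0.43, C1qa, a complement subunit, fell by 0.36, and 10 were not called (median -0.07). These 2 of 12 are near the share of all genes, and edgeR called neither without PND42 replicates 1, 2 and 5. Of 14 tested genes of antigen presentation, complement and interferon, 3 fell and none rose (median -0.76), beside 5.8% of all genes lower, with the same counts without PND42 replicates 1, 2 and 5. Ifit3, an interferon-induced gene, was at 0.669, 0.458, 0.883, 0.827 and 0.274 CPM for PND90 and at 2.38, 2.04, 2.85, 2.06 and 2.76 CPM for PND42. The interferon regulator Irf7 was between 3.48 and 4.77 CPM and between 6.33 and 12.0 CPM, in the same order. The groups overlapped for neither gene. Ifit3 fell by 2.0 on the log2 scale (SE 0.27, adjusted p = 9.19e-04) and Irf7 by 1.13 (SE 0.16, adjusted p = 0.00114). Complement C3 fell by 1.38. Of 10 tested genes of tanycytes and ependyma, Gpr50, an orphan receptor of tanycytes, rose by 0.80, and Vim, the filament protein vimentin, differed by 0.02 (SE 0.13, adjusted p = 0.923). This was 1 call of 10, near the 12.3% of all genes, and Gpr50 was not called without PND42 replicates 1, 2 and 5.

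**Figure D3:**
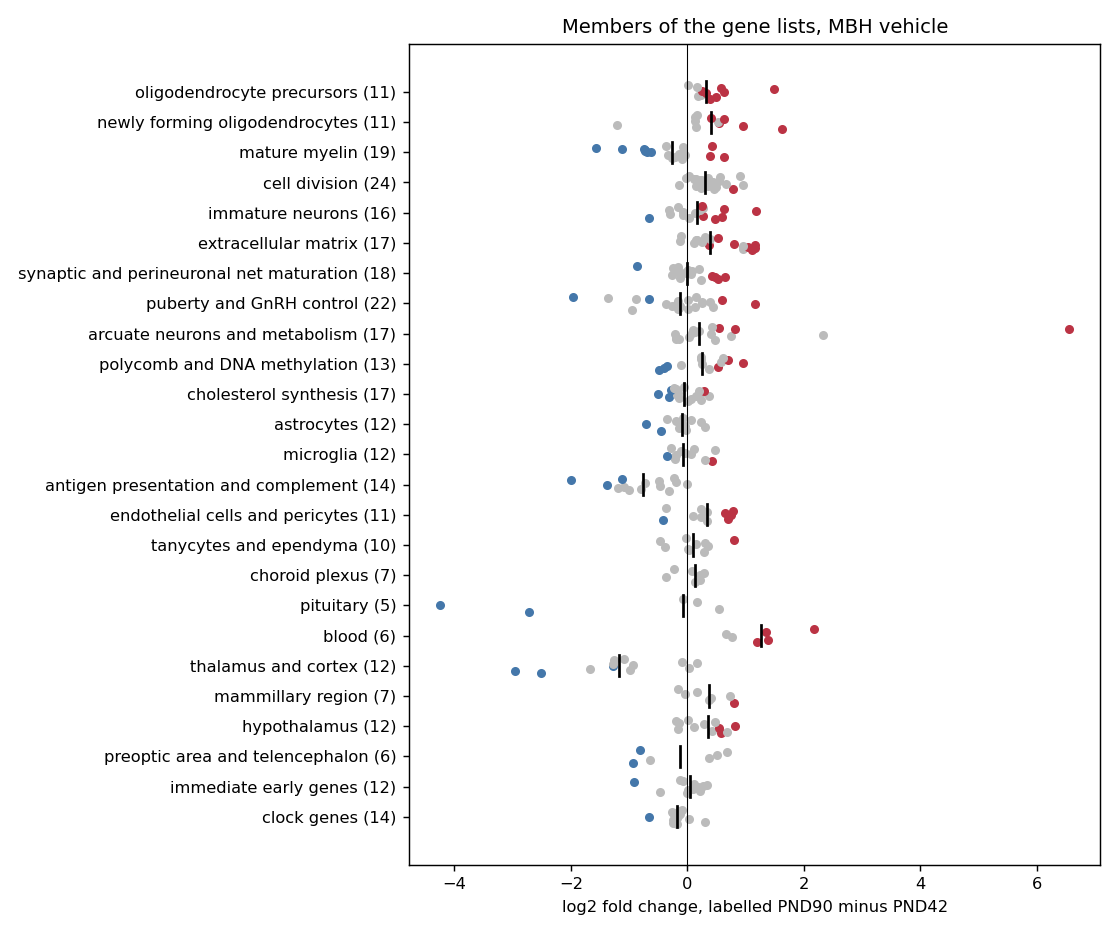
Log2 fold change between the labels PND90 and PND42 (horizontal axis) of the tested members of each gene list (rows, with the number of tested members), as red points for genes called higher, blue points for genes called lower and grey points for the rest, with the list's median as a black bar. The medians of precursors, newly forming oligodendrocytes, matrix and blood lie to the right of 0, and those of antigen presentation and of thalamus and cortex to the left.

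Genes of neighbouring tissue were counted in the same way, and their counts stand beside 12.3% of all genes called, or 3.28% without the 3 libraries. Of 12 genes of thalamus and cortex, Prkcd, Slc17a7 and Rgs16 fell by 2.97, 2.51 and 1.27 log2 units. None was called without PND42 replicates 1, 2 and 5, where 2 had an unadjusted p under 0.05. The median moved from -1.18 to 0.29 in that fit. Those libraries were left out for their high Slc17a7, a member of this list, so these values are no test of the list. The summed level of this list was 613, 439, 447, 486 and 572 CPM for PND90 and 1045, 1012, 503, 459 and 661 CPM for PND42, with Calb2, the calcium-binding protein calretinin, as its most abundant gene and no member at 0. Of 5 tested pituitary genes, Tshb and Cga, which encode the thyrotropin subunits, fell by 4.24 and 2.71, and their groups overlapped; Tshb alone was called without PND42 replicates 1, 2 and 5. Tshb was at 55.7, 18.6, 9.23, 62.0 and 1.57 CPM for PND42. The summed pituitary level was 570, 627, 636, 590 and 633 CPM for PND90 and 798, 687, 688, 846 and 537 CPM for PND42, of which Chgb, a granin that neurons also express, was the most abundant, and 2 of 10 genes were at 0 in all libraries labelled PND90. Of 7 mammillary genes Foxb1 rose by 0.79, and Cdh11, a cadherin and the most abundant of them, differed by 0.16 (SE 0.07, adjusted p = 0.132). This was 1 call of 7, near the share of all genes, and Foxb1 was also called without PND42 replicates 1, 2 and 5. Of 12 hypothalamic genes 3 rose, Nkx2-1 among them by 0.58, and none was called without PND42 replicates 1, 2 and 5, where 1 had an unadjusted p under 0.05. Of 6 tested genes of the preoptic area and telencephalon, Zic1 and Moxd1 fell by 0.94 and 0.82, and Moxd1 alone was called without those 3 libraries. None of 7 tested choroid plexus genes was called by edgeR, while 2 had an unadjusted p under 0.05 and DESeq2 called 1, and Enpp2 and Clic6 differed by -0.23 and -0.37. Among genes that vary with handling or the time of day, Dusp1, a phosphatase, and Ciart, a clock repressor, fell by 0.92 and 0.66, while Egr1 (0.01) and Tef (-0.16) and 22 further genes of these lists were not called by edgeR. DESeq2 also called Tef, Dbp and Cry1 of the clock genes (-0.16, -0.24 and -0.27). Dusp1 and Ciart were not called without those 3 libraries (adjusted p = 0.481 and 0.174), where the clock gene Per2 was called as lower (adjusted p = 0.0452). The summed level of 5 genes of the Y chromosome was at most 0.619 CPM in the 10 libraries. The part of these tissues in the results for other genes was not tested. The fit without the 3 libraries also has fewer PND42 libraries, so a call lost there cannot be assigned to neighbouring tissue.

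A set of genes that moved with labelled age in the vehicle POA was then read in the MBH. This set was chosen after values were seen, from POA libraries alone, and most of the rats gave both tissues, so its counts are descriptions. Of all genes tested in the POA, 26.8% were called between PND42 and PND22 and 6.56% between PND90 and PND42. The latter count, 946 genes, ran from 445 to 1241 without 1 library, and DESeq2 called 1488. In the POA, 66 genes fell both from PND22 to PND42 and from PND42 to PND90, and 33 rose at both steps. Of the 66, 51 were called higher in the MBH libraries labelled PND90 than in those labelled PND42 (77.3%, beside 6.47% of all genes), and 0 were called lower. Of the 33, 14 were called lower (42.4%, beside 5.8%), and 0 higher. For these counts of 0, DESeq2 and an unadjusted p under 0.05 also gave 0. The median MBH log2 fold change was 0.56 for the first set and -0.25 for the second, against -0.51 and 0.45 in the POA. Between the MBH libraries labelled PND90 and PND22, 0 genes of either set were called by edgeR, while 12 of the first and 14 of the second had an unadjusted p under 0.05, as had 2189 of all 14745 genes, and DESeq2 called 3 and 5, beside 316 of 21684. Replicate 4 of the POA libraries labelled PND22 had Pmch at 1400 CPM, Agrp at 12.1 CPM and Pomc at 30.0 CPM, levels like those of the MBH libraries, and without it the counts were 51 of 65 and 15 of 31. The first set held Gpr17, Enpp6, Fyn, Mag, Col4a1, Kdr, Hba-a1 and Alox15, and the second Qdpr, C3, Aadat and the glutamine synthetase gene Glul. Between the labels PND90 and PND42, 278 genes were called in both tissues, 15.3% of the MBH calls and 29.4% of the 946 POA calls, 173 with the same sign and 105 with opposite signs.

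**Figure D4:**
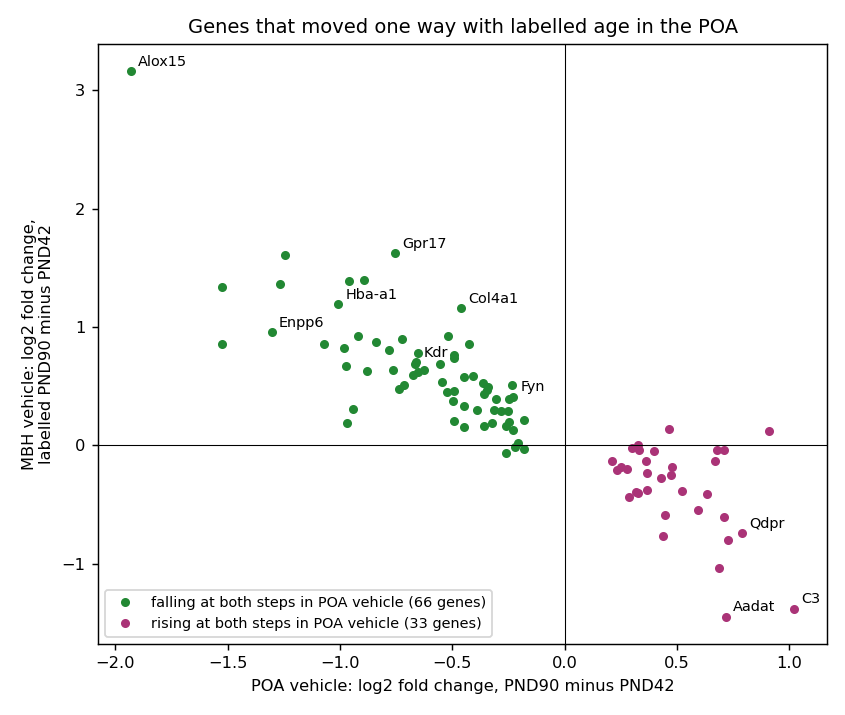
Log2 fold changes from PND42 to PND90 in the vehicle POA (horizontal axis) and in the vehicle MBH libraries with these labels (vertical axis), for 66 genes that fell (green) and 33 that rose (purple) at both steps of labelled age in the POA. Nearly all green points lie above 0 on the vertical axis and most purple points below it.

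The same gene was read in the exposed groups to see how the vehicle groups stood among the 42 of the series. In the MBH, Gpr17 means lay between 29.95 and 42.4 CPM in the 6 exposed groups labelled PND22, where vehicle was at 104 CPM. Of the exposed groups labelled PND90, the 3 KTZ groups lay between 21.8 and 23.9 CPM, DES3 and DES6 were at 106 and 108 CPM, and DES12 ran from 20.9 to 109 CPM over its 5 libraries. At PND42, vehicle (38.9 CPM) lay above the means of 5 exposed groups, which were between 19.7 and 26.5 CPM, and KTZ12 was at 99.4 CPM. The 5 KTZ12 libraries labelled PND42 were at 22.8, 122, 120, 111 and 122 CPM, so that replicate 1 lay with the other exposed groups and 4 lay far above them. The change from PND42 to PND90 differed between vehicle and KTZ12 for 27.5% of genes (4152, or 4612 in DESeq2). Between vehicle and DES12 it differed for 1.09% (165, or 592 in DESeq2). It differed in KTZ12 by 3.64 log2 units for Gpr17 (SE 0.37, adjusted p = 9.13e-06) and by 2.08 for Mki67 (SE 0.36, adjusted p = 5.64e-04), with vehicle higher. For DES12 the difference of Gpr17 was 0.16 (SE 0.49, adjusted p = 0.907). Within DES12, 0 of 14681 genes were called between the labels PND90 and PND42, and Gpr17 differed by 1.46 (SE 0.45, adjusted p = 0.46). Given the spread of its PND90 libraries, the small count does not show that DES12 changed as vehicle did. In the POA, the means fell from PND22 to PND42 to PND90 in vehicle and in 4 of the 6 exposed groups, the exceptions being KTZ6 and KTZ12. In the POA libraries of DES6 labelled PND90, Gpr17 ran from 0 to 35.2 CPM (median 27.2). The lowest Mbp in that group was 15.1 CPM, against a median of 5539 CPM.

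**Figure D5:**
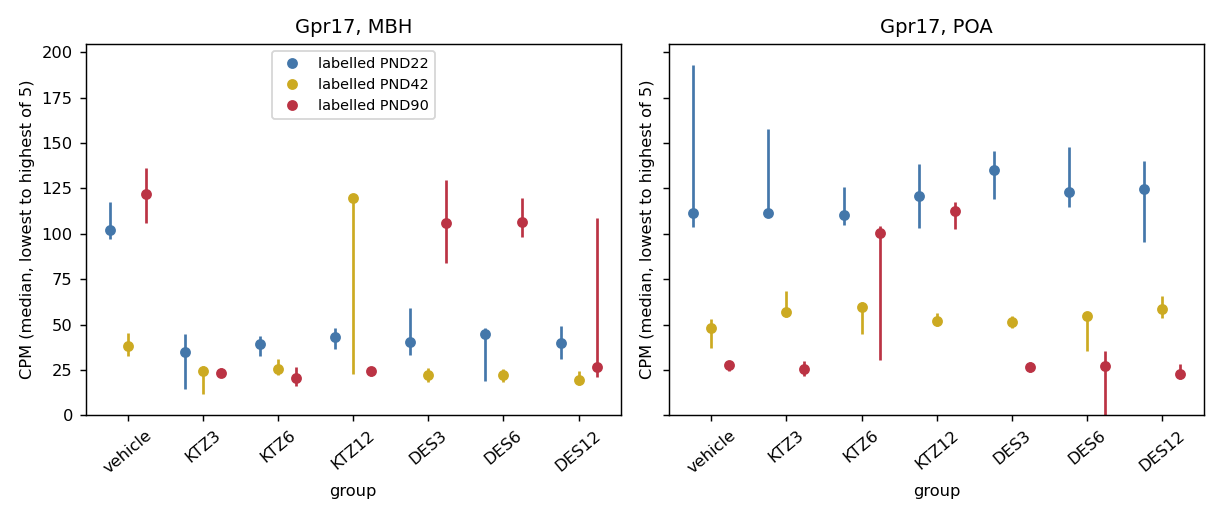
Gpr17 in CPM (vertical axis) in the 7 groups (horizontal axis) of the MBH (left) and POA (right), with the median of 5 libraries as a point and the lowest to the highest library as a line, coloured by labelled age. The vehicle MBH libraries labelled PND90 and PND22 sit above 90 CPM, while those labelled PND42 sit between 32.5 and 45.4 CPM.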

How the data were processed

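Polyadenylated RNA of 10 vehicle MBH libraries was analysed, 5 per labelled age, with the vehicle MBH libraries labelled PND22 and the vehicle POA libraries for comparison. The authors made stranded libraries, aligned the read pairs to Rnor_6.0 with STAR, counted reads per Ensembl gene with featureCounts and deposited whole-number counts without normalization. The submitters' processing notes name bcl2fastq 2.20. How the counting treated strand and multiply aligned reads is not given in the sources used here, so near-identical, overlapping and antisense genes are uncertain.

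Counts were tested with edgeR 4.0.16 (R 4.3.3): filterByExpr (minimum count 10), TMM scaling and the two-sided quasi-likelihood test, with only the groups compared in the fit. The study used DESeq2 with pairwise comparisons and reported exposed groups against controls. Genes were called at a Benjamini-Hochberg adjusted p under 0.05, without a fold threshold. SE was derived from the log2 fold change and the test's F. CPM were computed before TMM scaling. Exact permutation tests used log2(CPM + 0.5). DESeq2 1.42.0, other scalings, filters, a replicate block and leaving out libraries were alternatives. The scripts were tested on simulated data. Chi-square per gene was at least 6.65 in the 20 pairs of replicates within the 2 MBH groups, so none of these pairs was 1 library deposited more than once. Pairs across groups were not compared.

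Named genes were Gpr17, Mki67 and Mbp, the 10 largest rises and 10 largest falls among called genes with a symbol, a mean of at least 1 log2 CPM and groups that did not overlap, up to 4 called members per list (or the most abundant, up to 2), and genes that check a label. Others were named after their values were seen. Of the listed genes, 6 are not reported here and were left out of the list counts. The members and lists were chosen with earlier results of these data known. The rat pairs MBH and POA libraries by the labels; the deviations from group means correlated above 0.1 in 1 of 9 pairs.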

Additional observations from a re-analysis of the deposited data

Results flagged for a closer look

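Among the named genes, 14 of 186 groups of 5 libraries held a value far from the other 4; chance alone flags about 1 in 20 groups. In the libraries labelled PND90, replicate 2 was high for Eln (115 CPM), Npw (4.98 CPM) and Gfap (850 CPM), replicate 1 for Enpp6 (38.9 CPM) and Enpp2 (283 CPM), replicate 4 for Aurkb (28.4 CPM) and replicate 5 for Mmp2 (13.0 CPM), and replicate 3 was low for Irf7 (3.48 CPM). In those labelled PND42, replicate 5 was high for Enpp6 (22.8 CPM), S100b (2706 CPM) and Pmch (1757 CPM) and low for Ccdc155 (0.908 CPM), and replicate 4 was high for Alas2 (8.24 CPM) and Prl (35.1 CPM).

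The change from PND42 to PND90 differed between groups for 2 maturation genes. Between the MBH and the POA of vehicle rats, the difference was 2.39 log2 units for Gpr17 (adjusted p = 5.36e-10) and 2.19 for Mki67 (adjusted p = 4.66e-05). With the rat as a block, the difference was 2.36 for Gpr17 (adjusted p = 1.37e-05) and 2.25 for Mki67 (adjusted p = 0.0045). Between vehicle and KTZ12 in the MBH, it was 3.64 for Gpr17 (adjusted p = 9.13e-06) and 2.08 for Mki67 (adjusted p = 5.64e-04).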

How the results depend on the processing

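Gpr17 stayed higher in the MBH libraries labelled PND90 and past the threshold in all 19 alternatives, with log2 fold changes between 1.58 and 1.68 when 1 library was left out and 1.46 without PND42 replicates 1, 2 and 5. Mki67 was called in every fit without 1 library (0.67 to 0.88) but not with 14 groups in the fit (0.79) or without those 3 libraries (0.65). Mbp changed sign without them (0.38), and ran from -0.21 to 0.11 when 1 library was left out. The count of 1817 genes became 766 at a minimum absolute log2 fold change of 0.5, 497 without the 3 libraries, and 961 to 2823 without 1 library, and 2120 with the replicate number as a block. Whether that number pairs the libraries was not settled: the labels do not say that it does, 3 of 5 same-numbered pairs had a correlation over 0.1, and 3 of 5 libraries correlated best with their own number. Between PND42 and PND22, counts ran from 1052 to 3548 without 1 library, where Mki67 ran from -0.64 to -0.43 and Mbp from 0.30 to 0.60, and both passed the threshold without PND42 replicate 4. Between the labels PND90 and PND22, DESeq2 called 316 genes, and leaving out 1 library gave 0 to 197 genes, with Gpr17 from 0.22 to 0.32 and past the threshold without PND90 replicate 4. In the POA, DESeq2 called 1488 genes and leave-one-out fits 445 to 1241, with Mbp past the threshold in DESeq2 (-0.47) and between -0.58 and -0.38 without 1 library, past the threshold without PND90 replicate 5. The interaction of age and tissue had 745 calls with the rat as a replicate block, and that of age and DES12 had 592 in DESeq2. Of the other named genes, 47 of 89 kept direction and side of the threshold in every alternative; 30 lost the call without the 3 libraries, 19 with 14 groups in the fit, and 1 to 14 without any 1 library. Prkcd (0.33), Slc17a7 (0.87), Vim (-0.092) and Egr1 (-0.021) changed sign without the 3 libraries, and Aurkb (-0.70 to 0.24), Vim (-0.050 to 0.16) and Egr1 (-0.17 to 0.22) when 1 library was left out. The 3 libraries were picked by Slc17a7, so its change of sign there is no test. The causes were not tested. Genes under about 1 CPM rest on few reads and their small differences were not detectable.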
